A study of Mus musculus with 6 samples.

Results

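The genes described here encode subunits of the proteasome. They were taken as every gene on the array whose platform symbol begins with Psma, Psmb, Psmc or Psmd followed only by a number, without Psmb8 and Psmb9. This rule gave 37 genes with 67 probes, out of 19057 named genes and 45281 probes on the array. Of the 37 genes, 17 belong to the core particle (Psma and Psmb) and 20 to the regulatory particle (Psmc and Psmd). The arrays were 1-colour Illumina bead arrays hybridised with RNA of 21EM15 cells, an epithelial line derived from the mouse lens. In 3 samples the cells carried a lentiviral construct expressing a short hairpin RNA (shRNA) against Tdrd7, which encodes a Tudor domain component of RNA granules in the cytoplasm. In the 3 control samples the lentiviral construct contained GFP. Both groups are therefore of the same line and both carry a lentivirus, and the labels name no shRNA in the controls, so an effect of carrying a hairpin and an effect of reduced Tdrd7 cannot be told apart. The labels give neither a time after transduction nor whether replicates came from separate cultures. The p-values therefore reflect the spread among these 6 samples alone, and that spread may be technical. Arrays carry the running numbers of the scanner table, 4 to 6 for knockdown and 1 to 3 for control.

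The proteasome is the main protease of the cytosol and nucleus and degrades proteins tagged with ubiquitin. Its core particle is a barrel of stacked rings, in which the outer alpha rings (Psma genes) gate the entrance and the inner beta rings (Psmb genes) hold the protease sites. The regulatory particle caps the barrel: a ring of ATPases (Psmc genes) unfolds the substrate, and the other subunits (Psmd genes) bind ubiquitin chains and cut them off. In the lens, ubiquitin-dependent degradation is known for removing damaged proteins and for regulating the division and differentiation of epithelial cells.

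The knockdown was present on each of its arrays. The Tdrd7 probe gave signals of 295, 252 and 308 intensity units on the knockdown arrays and of 854, 804 and 905 on the control arrays, and the groups did not overlap. Its normalized log2 fold change was -1.85 ± 0.28 (SE), which leaves 27.7% of the control level. The limma p adjusted over all genes was 0.76, and p was 0.1 in an exact permutation test (two-sided), the minimum for 3 arrays against 3. Between 37.2% and 38.8% of the probes were detected per array. Of the lens epithelial markers, 10 of 13 were tested and detected on all 6 arrays, among them Pax6, Six3 and Cryab, while Foxe3 was detected on no array, Cryaa on 1 and Cdh1 on at most 2. None of the 7 lens fibre markers and none of the 4 endothelial markers on the array was tested. Of the immune markers only Cd3e was tested and Ptprc was detected on no array, whereas 5 of 7 fibroblast markers, including Col1a1 and Dcn, were detected on all 6 arrays. Of the muscle markers Myog was tested, and no neuron marker was. Cd3e, at 5.17 to 5.89 log2 intensity units, and Myog, at 5.27 to 5.85, were detected on at most 5 of 6 arrays. Both lay close to the lowest detected level, 5.23 to 5.34 per array. Among the lens epithelial markers, Pax6 was also close to this level on control arrays 2 and 3, at 5.47 and 5.45. Cdh2 was close to it on knockdown arrays 4 to 6 and control array 1, at 5.40 to 5.49.

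Of the 37 proteasome genes, 31 were detected on all 3 arrays of at least 1 group and were tested. These are 12 of the core and 19 of the regulatory particle, and they are referred to below as the tested subunits. Psma1, Psma3 and Psma6 of the alpha ring and Psmd3 of the regulatory lid were detected on no array, so their probes give no level here. Psma8 and Psmb11, which encode subunits known from testis and thymus, were detected on at most 4 and 2 of the 6 arrays and were not tested.

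None of the 31 tested subunits differed between knockdown and control in the limma fit. Adjusted p-values lay between 0.998 and 1.00, and 0 of 31 had an unadjusted p under 0.05. Over all 9200 genes tested, 0% passed the adjusted threshold of 0.05 and 3.29% (303 genes) had an unadjusted p under 0.05. Fitted log2 fold changes of the tested subunits ran from -0.28 for Psmd13 to 0.33 for Psmc6, which is 82.4% to 126% of the control level. The median 95% confidence interval of a tested subunit was ± 0.45 log2 units, a 1.37-fold change either way. Smaller changes could not be told from the spread between arrays. These intervals are not adjusted over genes, and Tdrd7 at -1.85 was not called by the adjusted test either (limma adjusted p = 0.76). Changes larger than 1.37-fold could therefore also go uncalled. By sign, 11 of 12 core genes lay below control with a median of -0.12 log2 units, and 9 of 19 regulatory genes with a median of 0.0073. Among all genes 47.7% lay below control and the median was 0.014. The difference between the particles was not tested, and without knockdown array 4 the core median was 0.0071 with 46.2% of core genes below control (the filter on the remaining arrays then lets in 1 more core gene).

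**Figure D1:**
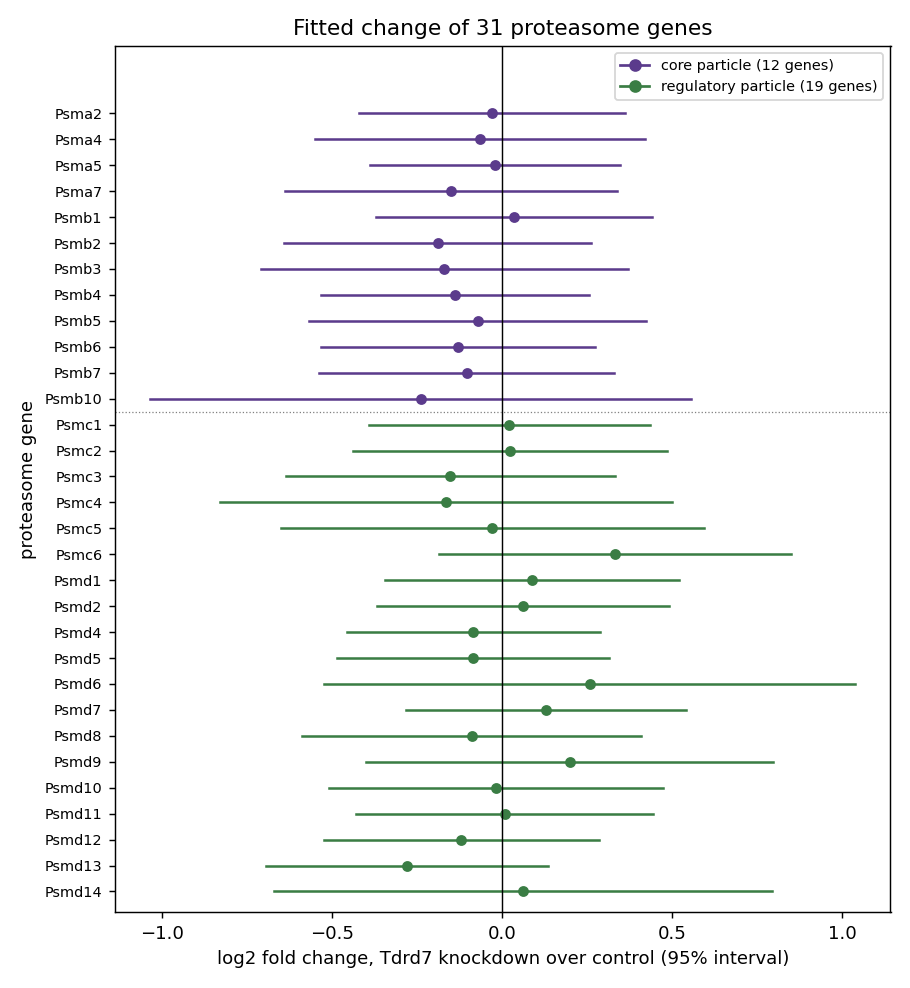
Fitted log2 fold change of each tested proteasome gene, Tdrd7 knockdown over control, with its 95% confidence interval from limma (n = 3 arrays per group). Core particle genes are purple and regulatory particle genes green; every interval includes 0, and 11 of 12 core genes have a point left of 0.

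The protease sites of the core particle lie in the products of Psmb6, Psmb7 and Psmb5, which cleave after acidic, basic and hydrophobic residues in that order. Psmb5 was at 8.93, 9.55 and 9.28 log2 intensity units on knockdown arrays 4, 5 and 6, and at 9.19, 9.54 and 9.23 on control arrays 1, 2 and 3. Psmb6 was at 12.10, 12.46 and 12.18 on the knockdown arrays, against 12.42, 12.43 and 12.29 on the control arrays. Psmb7 was at 12.28, 12.67 and 12.25 on the knockdown arrays, against 12.45, 12.64 and 12.42 on the control arrays. In all 3 genes the groups overlapped, with array 5 as the highest of the 6 arrays and array 4 or 6 as the lowest. The log2 fold change was -0.072 ± 0.22 (SE) for Psmb5, which corresponds to 95.1% of control with a 95% interval from 67.5% to 134%. It was -0.13 ± 0.18 for Psmb6, with an interval from 69.0% to 121% of control, and -0.10 ± 0.19 for Psmb7, with one from 68.9% to 126%. Levels under 67.5% of control thus lie outside all 3 intervals. Single arrays moved these values: without knockdown array 4 Psmb5 was at 0.088, Psmb6 at -0.057 and Psmb7 at -0.048, and without knockdown array 5 they were at -0.22, -0.23 and -0.24.

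Promoters were searched for elements that the subunit genes share. Of the 37 genes, 30 had an entry in a table of RefSeq promoters (build GRCm38.p6), and Psma8, Psmb1, Psmb2, Psmb7, Psmc3, Psmd3 and Psmd7 had none. The 250 bases before the annotated start are shown for the catalytic genes Psmb5 and Psmb6. They are also shown for the genes with the lowest and the highest fitted change, Psmd13 and Psmc6. Capitals mark matches to TGACNNNGC or TGAGNNNGC on either strand, the core of the antioxidant response element, through which the transcription factor Nfe2l1 is known to raise proteasome genes when proteasome activity is limiting. Psmb5 is taken from chr14:54617996-54618245 on the minus strand, Psmb6 from chr11:70525107-70525356 on the plus strand, Psmd13 from chr7:140882144-140882393 on the plus strand and Psmc6 from chr14:45329574-45329823 on the plus strand.
Psmb5: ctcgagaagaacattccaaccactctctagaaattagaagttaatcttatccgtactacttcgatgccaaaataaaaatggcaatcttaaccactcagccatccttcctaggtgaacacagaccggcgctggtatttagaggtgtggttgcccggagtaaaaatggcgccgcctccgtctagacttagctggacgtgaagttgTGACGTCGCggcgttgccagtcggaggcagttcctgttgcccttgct
Psmb6: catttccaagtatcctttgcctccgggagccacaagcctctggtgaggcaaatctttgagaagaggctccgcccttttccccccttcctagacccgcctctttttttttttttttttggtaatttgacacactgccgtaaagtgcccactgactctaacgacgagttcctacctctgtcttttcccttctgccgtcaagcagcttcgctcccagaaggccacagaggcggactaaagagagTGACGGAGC
Psmd13: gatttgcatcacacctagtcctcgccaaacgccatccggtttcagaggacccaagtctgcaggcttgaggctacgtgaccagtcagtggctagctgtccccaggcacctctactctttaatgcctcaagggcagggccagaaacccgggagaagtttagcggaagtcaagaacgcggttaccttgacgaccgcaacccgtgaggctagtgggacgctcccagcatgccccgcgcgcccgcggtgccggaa
Psmc6: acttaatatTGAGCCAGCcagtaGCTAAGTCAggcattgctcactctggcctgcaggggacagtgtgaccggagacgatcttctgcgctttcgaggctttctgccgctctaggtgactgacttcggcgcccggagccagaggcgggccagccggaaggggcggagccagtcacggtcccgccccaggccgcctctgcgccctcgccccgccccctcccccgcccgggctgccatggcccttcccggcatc
The match began 47 bases before the start in Psmb5 and 9 bases before it in Psmb6, while Psmc6 held 2, at 241 and 227 bases, and Psmd13 held none in this window. In all, 11 of 30 proteasome genes with an entry held a match (36.7%), against 25.7% of all 27025 genes in the table. The CCAAT box, searched as CCAAT on both strands, was in 12 of 30 (40.0%), against 37.5% of all genes. The 10 tested genes with the antioxidant element core had a median log2 fold change of -0.069, and the 16 without it -0.030. On knockdown array 4 their median deviations from the gene's mean were -0.24 with the element core and -0.25 without it.

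The remaining beta subunits have structural roles in the ring. Psmb4 was the only one of the 31 tested subunits whose groups did not overlap, with the knockdown lower. Of all genes tested, 7.83% showed no overlap, 3.5% with the knockdown lower and 4.33% with it higher. Its levels were 13.20, 13.50 and 13.50 on the knockdown arrays, against 13.52, 13.51 and 13.58 on the control arrays. Arrays 5 and 6 lay within 0.01 log2 units of the lowest control array, so the separation is small, and it was lost with 75th percentile scaling, without normalization between arrays and with the authors' processed values. Its log2 fold change was -0.14 ± 0.17 (SE). Psmb2 was at 12.03, 12.60 and 12.32 on the knockdown arrays and at 12.44, 12.54 and 12.54 on the control arrays. Psmb3 was at 11.59, 12.40 and 11.98 on the knockdown arrays and at 12.07, 12.32 and 12.10 on the control arrays. In both, array 4 was the lowest and array 5 the highest of the 6, and the log2 fold changes were -0.19 ± 0.20 and -0.17 ± 0.23. Without array 4 Psmb4 was at -0.038, Psmb2 at -0.045 and Psmb3 at 0.031. Psmb1 was the one core gene above control, at 0.034 ± 0.18.

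Psmb10 encodes the subunit that replaces the Psmb7 product in the immunoproteasome, the form of the core particle induced by interferon gamma. It was at 8.86, 9.36 and 9.97 on the knockdown arrays and at 9.55, 9.18 and 10.19 on the control arrays. It had the widest spread of the core genes in both groups, with array 6 the highest of the knockdown and array 3 the highest of the control arrays, and its log2 fold change was -0.24 ± 0.35 (SE). The other inducible subunits, which stand outside the rule, were not ordered like it throughout. Psmb8 was at 10.86, 9.84 and 10.88 on the knockdown arrays and at 10.73, 10.51 and 11.39 on the control arrays, and Psmb9 at 7.42, 6.86 and 7.01 on the knockdown arrays and at 6.93, 6.93 and 7.04 on the control arrays. Array 3 was the highest control array in all 3 inducible genes, but array 4 was the lowest of the 6 in Psmb10 only. None of them passed the limma test (adjusted p = 0.998 each), with log2 fold changes of -0.35 ± 0.34 for Psmb8 and 0.13 ± 0.20 for Psmb9. Psmb8 was at -0.0099 without knockdown array 5 and at -0.097 without control array 3, but at -0.54 without control array 2. Psmb10 was at 0.030 without knockdown array 4, at 0.037 without control array 3 and at -0.53 without knockdown array 6, and Psmb9 at -0.032 without knockdown array 4.

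The tested alpha subunits Psma2, Psma4, Psma5 and Psma7, which form the gate of the barrel, lay slightly below control, with a median of -0.049 log2 units. Psma7 was at 10.71, 11.35 and 11.03 on the knockdown arrays and at 11.12, 11.36 and 11.07 on the control arrays. Psma4 was at 11.90, 12.56 and 12.27 on the knockdown arrays and at 12.43, 12.23 and 12.26 on the control arrays. Both genes had their lowest value on array 4, and their log2 fold changes were -0.15 ± 0.21 and -0.066 ± 0.21 (SE). Psma2, at 13.48, 13.64 and 13.34 on the knockdown arrays and 13.58, 13.54 and 13.43 on the control arrays, had a log2 fold change of -0.031 ± 0.17. For Psma5 the value was -0.020 ± 0.16. Without array 4 Psma7 was at 0.0071 and Psma4 at 0.11, and without array 6 Psma2 was at 0.047.

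**Figure D2:**
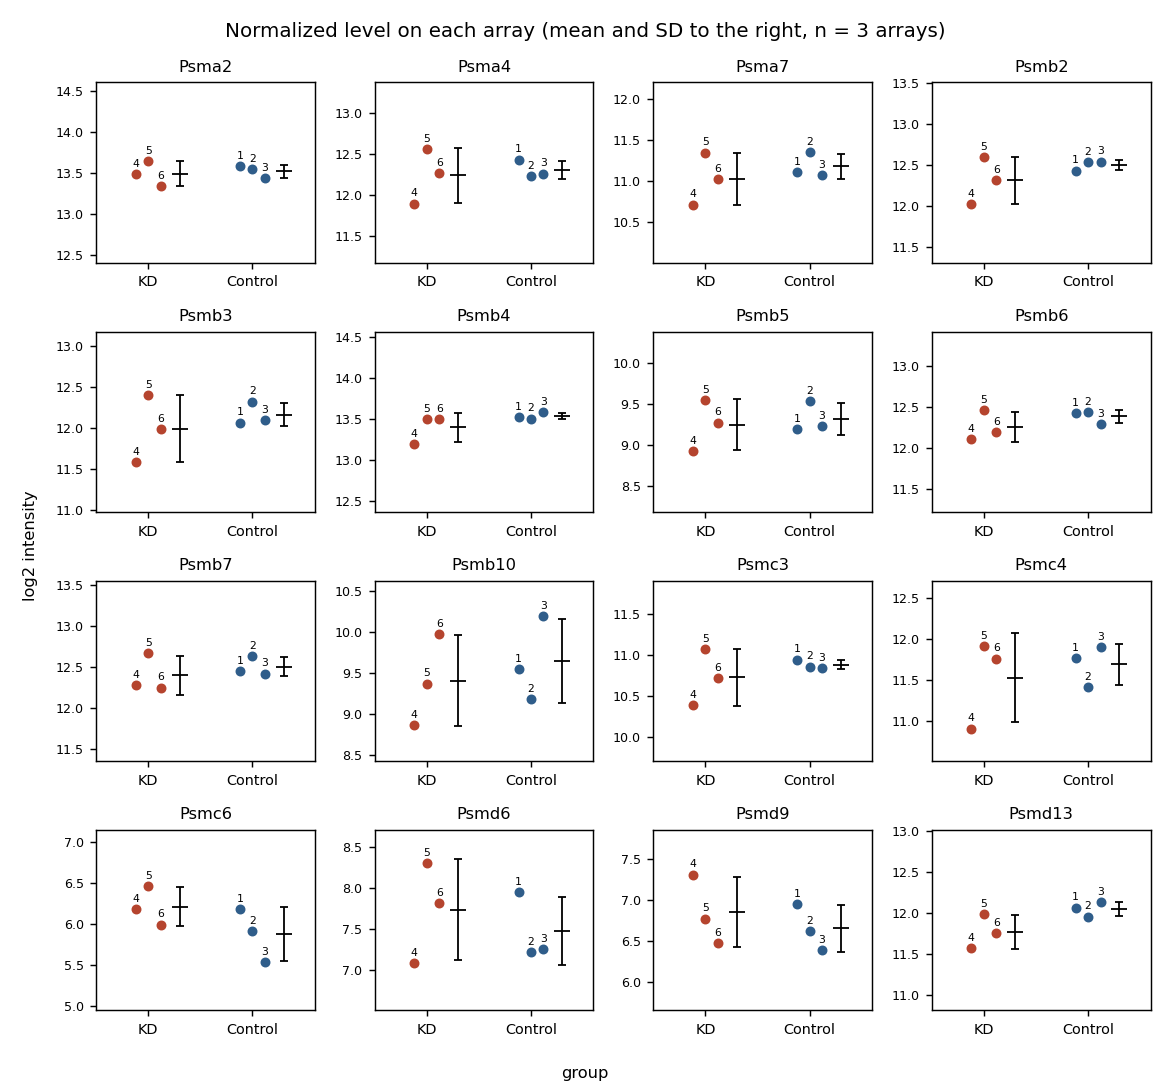
Normalized log2 intensity of 16 proteasome genes on each array, knockdown (KD, red, arrays 4 to 6) left of control (blue, arrays 1 to 3), with the mean and SD of 3 arrays beside the points. Each panel spans the same height in log2 units around the gene's own mean, and levels of different genes are not comparable; in Psmc4, Psmb3 and Psmb2 array 4 lies below every other array.

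All 6 ATPases of the regulatory base, Psmc1 to Psmc6, were tested, and 3 lay above and 3 below control with a median of -0.0039 log2 units. Psmc4 was at 10.91, 11.92 and 11.76 on the knockdown arrays and at 11.77, 11.42 and 11.90 on the control arrays. Psmc3 was at 10.39, 11.08 and 10.72 on the knockdown arrays and at 10.95, 10.86 and 10.84 on the control arrays. Here too array 4 was the lowest and array 5 the highest array, and the log2 fold changes were -0.17 ± 0.29 and -0.15 ± 0.21 (SE). Without array 4 these were 0.15 and 0.018. Psmc6 was at 6.18, 6.45 and 5.99 on the knockdown arrays and at 6.18, 5.91 and 5.53 on the control arrays. With 0.33 ± 0.23 it had the highest fitted value of the 31 genes, but the groups overlapped and its interval ran from 87.8% to 180.3% of control. Its signal lay close to the lowest detected level, 5.23 to 5.34 log2 units per array. The value was 0.16 without background correction, 0.13 with the authors' processed values, where Psmd6 was higher at 0.17, and 0.16 without control array 3. Psmc1, Psmc2 and Psmc5 were at 0.021 ± 0.18, 0.023 ± 0.20 and -0.029 ± 0.27.

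The 13 tested Psmd genes split 7 above and 6 below control, with a median of 0.0073 log2 units. Psmd13, a subunit of the lid, had the lowest fitted value of all tested subunits, -0.28 ± 0.18 (SE). It was at 11.57, 11.98 and 11.76 on the knockdown arrays and at 12.06, 11.95 and 12.13 on the control arrays, so that knockdown array 5 lay just above control array 2. Its interval, 61.8% to 109.8% of control, includes no change. Psmd6, also of the lid, was at 7.08, 8.30 and 7.81 on the knockdown arrays and at 7.95, 7.22 and 7.25 on the control arrays. The spread within each group was wider than the difference between them, and the log2 fold change was 0.26 ± 0.34. It was -0.027 without knockdown array 5 and 0.58 without knockdown array 4, while Psmd13 was at -0.39 and -0.18 in these cases. Psmd14, the deubiquitinase that removes ubiquitin chains from substrates, had the largest SD of the 31 genes among the knockdown arrays, 0.67 log2 units against 0.15 among the control arrays, and a log2 fold change of 0.061 ± 0.32. Its partner in the lid, Psmd7, was at 0.13 ± 0.18. The scaffold subunits Psmd1 and Psmd2 were at 0.087 ± 0.19 and 0.062 ± 0.19, and the ubiquitin receptor Psmd4 at -0.085 ± 0.16. The lid subunits Psmd8, Psmd11 and Psmd12 were at -0.090 ± 0.22, 0.0073 ± 0.19 and -0.12 ± 0.18.

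Psmd5, Psmd9 and Psmd10 encode assembly chaperones of the base that are absent from the finished proteasome. Psmd9 was at 7.31, 6.77 and 6.47 on the knockdown arrays and at 6.95, 6.62 and 6.38 on the control arrays. By its brightest probe it was the only tested subunit gene with its highest value on array 4. Its log2 fold change was 0.20 ± 0.26 (SE), or -0.030 without array 4. The other Psmd9 probe that entered was highest on control array 3, at 6.13 against 5.77 on array 4, with a log2 fold change of -0.044. With the mean of its probes Psmd9 was at 0.077. Psmd5 and Psmd10 were at -0.086 ± 0.17 and -0.019 ± 0.21. Without these 3 genes the median of the regulatory particle was 0.014 over 16 genes.

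The median SD among the knockdown arrays, 0.23 log2 units, exceeded the median size of the fitted changes, 0.090. On array 4, 25 of 31 tested subunits lay below their mean over the 6 arrays, with a median deviation of -0.23 log2 units, while on array 5, 28 of 31 lay above it, with a median of 0.19. Array 4 was the lowest of the 6 arrays for 19 of 31 genes, against 25.9% of all genes tested, and array 5 the highest for 19 of 31, against 19.7% of all genes. Array 5 exceeded array 4 in all 12 core genes and in 16 of 19 regulatory genes, where 51.2% of all genes tested did so. All 6 Psmc genes had their highest value on array 5. The 3 exceptions with array 4 at or above array 5 were Psmd4, Psmd5 and Psmd9. On array 6 the median deviation was -0.050, and on control arrays 1, 2 and 3 it was 0.037, 0.055 and -0.027. The SD was larger among knockdown than among control arrays in 24 of 31 genes, against 61.4% of all genes, and the median SD among the control arrays was 0.15 log2 units.

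**Figure D3:**
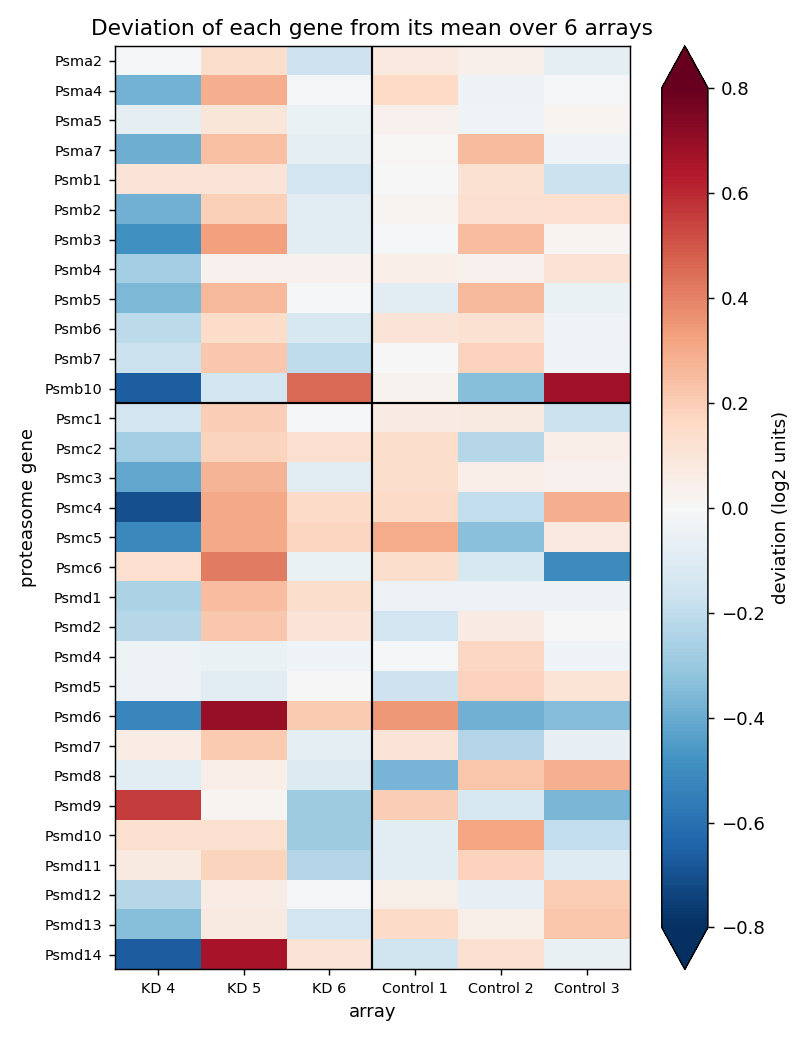
Deviation of each tested proteasome gene from its own mean over the 6 arrays, in log2 units, with knockdown (KD) arrays left of the line and control arrays right of it, and core genes above the line and regulatory genes below it. Blue (below the mean) prevails on array 4 in 25 of 31 genes and red (above the mean) on array 5 in 28 of 31.

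The summed normalized signal of the 31 genes ran from 91030 to 117900 intensity units over the knockdown arrays and from 106700 to 109300 over the control arrays, so the control range lay inside the knockdown range. Without array 4, the median log2 fold change was 0.016 for all tested subunits and 0.10 for the regulatory particle, with 43.8% of the subunits below control. Without array 5 the medians were -0.14 for all, -0.22 for the core and -0.080 for the regulatory particle, with 90.3% of the subunits below control. No subunit passed the limma threshold in either case. Other groups of genes moved on the same arrays. Cell cycle genes had median deviations of -1.01 on array 4 and 0.70 on array 5 over 22 tested genes, and 11 reference genes, Gapdh among them, were at -0.31 and 0.19. Of these 11, 9 lay below their mean on array 4 and 9 above it on array 5, while 2, Tbp and B2m, were highest on array 4. The 5 tested fibroblast markers were at 0.90 on array 4 and -0.26 on array 5, and their summed signal ran from 7307 to 14740 over the knockdown arrays and from 5020 to 8806 over the control arrays. The median over all 9200 genes was 0.0054 on array 4 and 0.019 on array 5. Array 4 also had the lowest mean correlation with the other arrays, 0.957 against 0.971 to 0.976. The part of these lists in the proteasome values was not tested. On an array, fewer cells of a kind and less RNA per cell cannot be told apart.

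**Figure D4:**
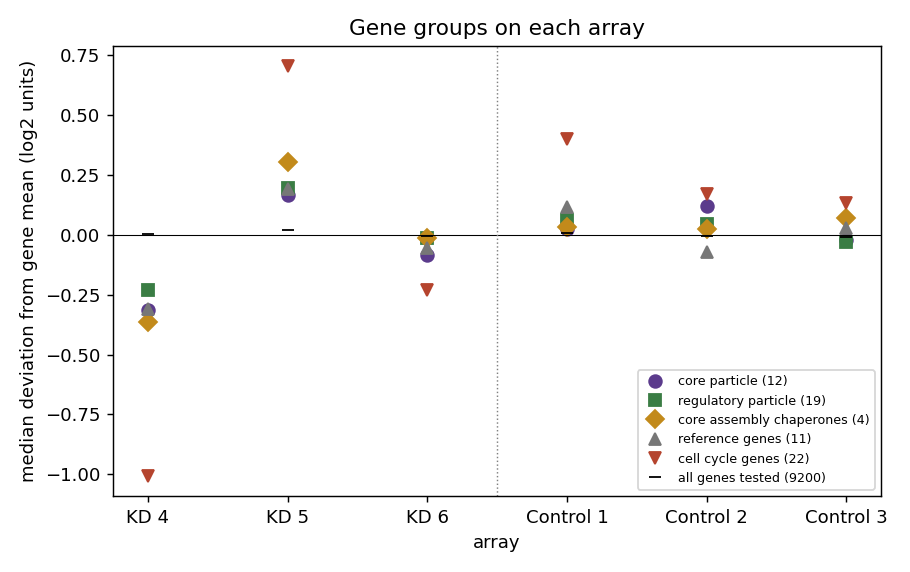
Median deviation from the gene mean, in log2 units, of the core and regulatory particle genes and of comparison lists on each array, knockdown (KD) arrays left of control arrays; the number of tested genes is in the legend. The core particle is at -0.32 on array 4 and 0.17 on array 5, and cell cycle genes lie on the same side at -1.01 and 0.70.

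Of the other genes of the pathway, 29 were tested, 17 above and 12 below control with a median of 0.076 log2 units, and none passed the limma test in either direction. Psme2 had the largest fitted difference in size, which rested on knockdown array 4: without it Psme2 was at -0.14 and Psmb8 at -0.52, and with array weights they were at -0.21 and -0.54. Psme2 encodes a subunit of the activator that can cap the core particle in place of the regulatory particle. Psme2 was at 8.73, 9.31 and 9.46 on the knockdown arrays and at 9.43, 9.60 and 9.57 on the control arrays, with a log2 fold change of -0.37 ± 0.22 (SE), and the groups overlapped by array 6 alone. Its partner Psme1 was at 11.15, 11.49 and 11.68 on the knockdown arrays and at 11.69, 11.42 and 11.90 on the control arrays, with -0.23 ± 0.21. In both genes array 4 was the lowest array, and without it Psme1 was at -0.091. Among 4 tested assembly chaperones of the core particle, Psmg1, Psmg2 and Pomp lay below control and Psmg3 above it. Pomp, which matures the beta rings, was at 12.30, 12.70 and 12.61 on the knockdown arrays and at 12.61, 12.51 and 12.63 on the control arrays, with a log2 fold change of -0.048 ± 0.18, or 0.070 without array 4. The chaperones as a list were at -0.36 on array 4 and 0.30 on array 5, on the same sides as the subunits. All 29 pathway genes together had median deviations of 0.025 on array 4 and 0.057 on array 5. The pathway as a whole thus did not share the fall on array 4.

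Of 9 tested genes whose products bind to or regulate the proteasome, 8 lay above control, with a median of 0.16 log2 units and none past the test. Usp14, a deubiquitinase of the regulatory particle, was at 8.78, 9.15 and 8.42 on the knockdown arrays and at 8.81, 8.66 and 8.01 on the control arrays, a log2 fold change of 0.29 ± 0.28 (SE). With the mean of its probes in place of the brightest, Usp14 was at -0.11, and without control array 3 it was at 0.044. Of the genes that control proteasome transcription, 3 of 5 tested lay above control, Nfe2l1 among them. Nfe2l1 was at 12.89, 12.13 and 12.13 on the knockdown arrays and at 12.10, 12.52 and 11.73 on the control arrays, with 0.26 ± 0.29. It was highest on array 4, the array on which most subunits were lowest, and a link between them was not tested. Without array 4 Nfe2l1 was at 0.013, without control array 3 at 0.072 and without control array 2 at 0.47. Of the 4 tested genes around the unfoldase gene Vcp, which feeds substrates to the proteasome, Nploc4 was the furthest from control at 0.29 ± 0.26, with 8.69, 8.03 and 8.07 on the knockdown arrays and 8.37, 7.85 and 7.71 on the control arrays, while Vcp, Ufd1 and Nsfl1c lay below control. Nploc4 was at 0.073 without knockdown array 4 and at 0.49 without control array 1.

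Probes of the same gene were compared where several had entered. This was so for 15 tested subunits, and in 10 of them all probes had 1 sign. The span of the log2 fold change between probes of a gene had a median of 0.19 and was largest for Psmc5, from -0.33 to -0.029. In Psmb7 the 4 probes ran from -0.23 to -0.035. Probes of Psmc2, Psmd2, Psmd9, Psmd10 and Psmd12 differed in sign, among them -0.12 and 0.18 in Psmd12 and -0.044 and 0.20 in Psmd9. Differences of this size between probes equal or exceed the fitted changes of most subunits. By probes, 18 of 19 in the core and 14 of 32 in the regulatory particle lay below control, and array 5 exceeded array 4 in 45 of 51.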

How the data were processed

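RNA of 6 samples of 21EM15 cells was measured. Per the labels' protocols it was extracted on spin columns, treated with DNase and turned into biotinylated cRNA. The deposited scanner table holds, per the file headers, a linear intensity with its detection p-value for each probe and array. The sources used here do not name the scanner software. The authors' second table holds processed intensity values. Every column there followed 1 scanner column linearly, with residuals up to 0.011 intensity units, in the group that its label names; how they were scaled is unknown. Scanner columns name the group but not the replicate. They were fitted by group, and the replicate numbers that follow from this match were not used in the main fit.

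Intensities were background-corrected from the detection p-values, quantile-normalized and log2-transformed by the neqc function (limma 3.58.1, R 4.3.3; offset 16, which understates changes of dim genes). A probe entered with detection p under 0.05 on every array of either group or both, leaving 16349 of 45281 probes. A gene was represented by its brightest probe. Of all probes, 34885 had 1 symbol in the platform annotation, 18 several and 10378 none, and symbols were checked against a current table through gene identifiers. lmFit and eBayes gave the comparison of knockdown with control over all 6 arrays, with Benjamini-Hochberg adjustment over 9200 genes and a threshold of 0.05. The number of arrays limits the precision. The fit was tested on simulated data with independent noise for each gene and array, which holds no deviations shared across an array.

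The members and gene lists were chosen with earlier results of these data known. All members are named, and values per array are given for the 3 genes of each of Psma, Psmb, Psmc and Psmd with the largest fitted change, for catalytic and inducible subunits and for genes whose groups did not overlap, besides the 4 other pathway genes with the largest change and 5 fixed ones. Lists are described by counts and medians, without a test. Promoter windows came from RefSeq. The plots were made in Python 3.11.15 with matplotlib 3.10.9.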

Additional observations from a re-analysis of the deposited data

How the results depend on the processing

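No tested subunit passed an adjusted p of 0.05 in limma under any of 17 alternatives. Tdrd7 stayed below control throughout (log2 fold change -2.15 to -1.56), but it did not pass under any of them either. The lack of calls therefore does not show that the subunits were unchanged. The count of changed genes was 0 except with every probe by itself, where 1 unnamed probe passed. Of all genes, 303 had an unadjusted p under 0.05; the number was 814 with array weights, 782 with no filter, 528 over single probes, 98 when arrays were not normalized and 109 to 474 leaving out each array in turn, lowest without control array 3 and highest without knockdown array 5. The number of subunits without overlap was 1, and 0 with 75th percentile scaling, without normalization between arrays, and with the authors' processed values with or without the replicate block. It was 2 to 9 leaving out 1 array, where fewer arrays overlap less often. The share over all genes is not given for these fits, so the counts are not read as a result. Subunits below control were 64.5%, core genes 91.7% and regulatory genes 47.4%. With 75th percentile scaling and also without normalization these were 51.6%, 75% and 36.8%. Core genes were at 75% with array weights, and regulatory genes at 57.9% with the authors' values and with the replicate block. Leaving out each array, they ranged from 43.8% to 90.3%, from 46.2% to 100% and from 42.1% to 84.2%, each lowest without array 4 and highest without array 5. The median of all genes moved by less than 0.1 log2 units under each scaling. The subunits' median deviation less that of all genes was -0.24 on array 4 and 0.17 on array 5. It was -0.22 and 0.17 without background correction, -0.16 and 0.18 with no filter, -0.22 and 0.16 over single probes and -0.25 and 0.17 with the mean of probes. Array weights and the eBayes options leave this measure as it is by construction, and settings that only shift whole arrays give 1 value between them (-0.25 and 0.21).

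These fitted values turned in sign, none with a call: Psma2 to 0.0048 with 75th percentile scaling and 0.023 without normalization, Pomp to 0.0017 without normalization, Usp14 to -0.11 with the mean of probes, and Psma4 and Psmb5 to 0.011 and 0.039 with array weights. Leaving out each array, log2 fold changes ranged from -0.13 to 0.070 for Pomp, -0.11 to 0.047 for Psma2, -0.22 to 0.11 for Psma4, -0.31 to 0.0071 for Psma7, -0.53 to 0.037 for Psmb10, -0.37 to 0.031 for Psmb3, -0.22 to 0.088 for Psmb5, -0.032 to 0.25 for Psmb9, -0.33 to 0.018 for Psmc3, -0.36 to 0.15 for Psmc4, -0.027 to 0.58 for Psmd6, -0.030 to 0.39 for Psmd9, -0.51 to -0.14 for Psme2, -0.54 to -0.0099 for Psmb8, 0.16 to 0.47 for Psmc6, 0.073 to 0.49 for Nploc4, 0.044 to 0.47 for Usp14 and 0.013 to 0.47 for Nfe2l1. The cause was not tested.

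The replicate block was fitted only on the authors' values, whose columns carry the replicate number. Through their match with the scanner columns it could also have been fitted on the main values, which was not done. It left 0 changed genes, and 429 genes had an unadjusted p under 0.05. The correlation of deviations between samples sharing a number was -0.10, 0.13 and 0.59 for numbers 1, 2 and 3. The highest correlation of the same knockdown samples with a control sample of another number was 0.23, 0.093 and 0.039. Number 3 is knockdown array 6 and control array 3, so these 2 arrays may share a source of variation that the main fit leaves out. What they share was not tested, and the numbers are not treated as pairs. The files give no slide to fit as a block.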

Other observations

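Of 7 promoter motifs searched in the 250 bases before the start, 5 are not described above. The ETS factor core CCGGAAG was in 9 of 30 proteasome genes with an entry (30.0%), against 7.83% of all genes, and the GC box GGGCGG in 17 of 30 (56.7%), against 35.4%. The heat shock element pair GAANNTTC or TTCNNGAA was in 2 (6.67%, against 14.5%), the E-box CACGTG in 3 (10%, against 6.86%) and the palindrome of nuclear respiratory factor in 1 (3.33%, against 0.877%). All were searched on both strands after the expression values were known, and the shares are descriptions. The 8 tested genes with the ETS core had a median log2 fold change of 0.022 and a median deviation of -0.19 on knockdown array 4, and the 18 without it -0.079 and -0.30. All 8 are regulatory particle genes, and every tested core gene with an entry is among the 18. The motif and the particle therefore cannot be told apart in this contrast.

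In 7 tested subunit genes another probe of the same gene was detected on no array, so absence of signal at 1 probe does not show absence of the transcript. For Psma1, Psma3 and Psma6, whose products are needed for a complete alpha ring, the array holds 1 probe each, and for Psmd3 it holds 2.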
